A study of Trichoderma asperellum with 12 samples.

Results

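Nitric oxide reductase, the nitric oxide dioxygenases, nitrate and nitrite reductases and nitronate monooxygenases of the filamentous fungus Trichoderma asperellum TJ01 were followed across a dichlorvos series. The set held 13 of the 11647 genes in the deposited table. It was built around jgi_Trias1_136021, a fungal nitric oxide reductase that was selected on its fall with dose in these same libraries, so its values are given as a description with no test. The other 12 genes were taken by name alone, because their first KEGG orthology description contained nitric oxide, nitrate reductase, nitrite reductase, nitrate transporter or nitronate. No gene of the set had a nitrate transporter as its first entry.

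Mycelium of strain TJ01 had grown in PD medium and was then moved to Burk broth with 0 μg/mL (CK, the control), 100 μg/mL (D1), 500 μg/mL (D5) or 1000 μg/mL (D10) dichlorvos, an organophosphorus insecticide, for 24 h at 28 °C and 180 rpm. The study describes Burk medium as poor in nitrogen, and every group, the control included, was moved to it. The part of this move in any level given here was not tested. Each group had 3 RNA-seq libraries, 12 in all. The study's methods state that the experiment was repeated 3 times, and the labels do not say whether the libraries came from separate cultures, so p-values here measure the spread between libraries, which may be technical. Values are FPKM, which divide the fragments of a gene by its transcript length and by the library size, and levels of different genes are therefore compared per length.

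Control replicate 1 stood apart from the other 2 controls over all tested genes, as was known from earlier results of these data. Its log2(FPKM + 1) correlated at 0.895 and 0.897 with the other controls, which correlated at 0.984 with each other, and its relative depth read from low values was 0.824, against 0.977 to 1.02 in the other libraries. FPKM sums were between 895521 and 958261. The median FPKM of the tested genes was 25.7 in control replicate 1 and 15.2 and 16.4 in control replicates 2 and 3. In the treated libraries that median ran from 18.1 to 23.6. Of the 11 genes of the set that could be tested, 5 were more than 2-fold lower in control replicate 1 than in the mean of the other 2 controls, beside 12.9% of all 8916 tested genes (1149 genes). In the other direction, 2 of the 11 and 3150 of the 8916 genes were more than 2-fold higher there. Results are therefore given over 12 libraries and over the 11 without control replicate 1. The part of that library's difference in depth or state in any result was not tested.

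As background, filamentous fungi take up nitrate through a transporter of the NNP family, reduce it to nitrite with a molybdenum-containing nitrate reductase and reduce nitrite to ammonium with a sirohaem-containing nitrite reductase, and ammonium enters glutamine and glutamate. Fusarium oxysporum and its relatives can also respire nitrate and nitrite under low oxygen, where a cytochrome P450 (P450nor) reduces nitric oxide to nitrous oxide with NADH or NADPH. Nitric oxide is toxic through its reactions with haem and iron-sulphur proteins, and flavohaemoglobins remove it by oxidising it to nitrate.

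The fungal nitric oxide reductase jgi_Trias1_136021, whose closest KEGG entry is the P450nor family (E value 2e-178), was listed at 664, 3533 and 3730 FPKM in control replicates 1, 2 and 3. It stood at 1724, 1884 and 2275 FPKM at 100 μg/mL, 686, 999 and 657 FPKM at 500 μg/mL and 202, 132 and 142 FPKM at 1000 μg/mL. Control replicates 2 and 3 were the highest 2 libraries, the dose groups did not overlap with each other, and control replicate 1 lay among the libraries at 500 μg/mL. Against the mean of control replicates 2 and 3 (3631 FPKM), the mean was 54.0% at 100 μg/mL, 21.5% at 500 μg/mL and 4.36% at 1000 μg/mL. That is a 22.9-fold lower level at the highest dose, while all 3 controls together averaged 2642 ± 1716 FPKM (SD, n = 3). By rank it was the 30th most abundant of the 11647 genes in control replicates 2 and 3 and the 1105th at 1000 μg/mL. The log2 difference between 1000 and 0 μg/mL was -3.72 over 12 libraries and -4.53 over 11. At 100 μg/mL these values were -0.08 and -0.90, so the size of the first step rests on whether control replicate 1 is counted.

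**Figure D1:**
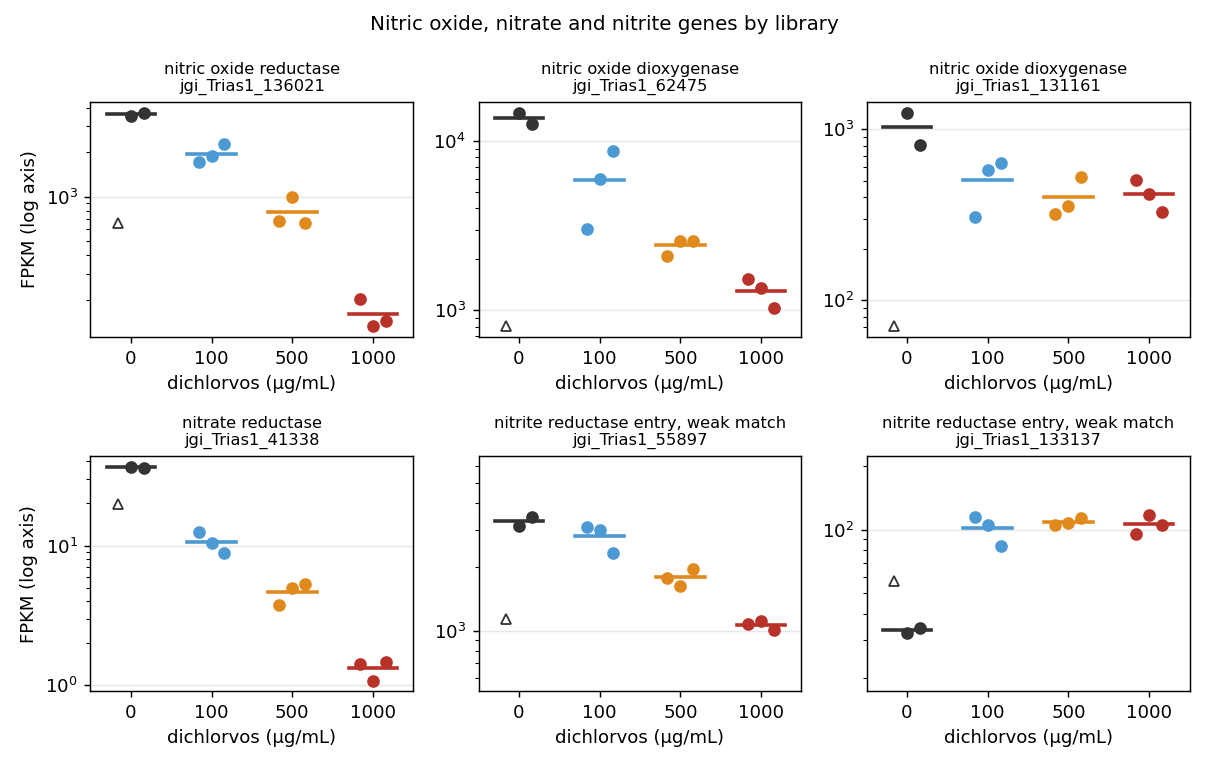
FPKM on a log axis (y) against dichlorvos in μg/mL (x) for the nitric oxide reductase, both nitric oxide dioxygenases, the expressed nitrate reductase and the 2 expressed genes with a nitrite reductase entry. Points are single libraries, the open triangle is control replicate 1, and each line is the group mean, taken in the control over replicates 2 and 3. The nitric oxide reductase went from 3631 FPKM in those 2 controls to 158 FPKM at 1000 μg/mL and the nitrate reductase from 36.3 to 1.32 FPKM, and the triangle is the lowest point for both dioxygenases.

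The more abundant nitric oxide dioxygenase, jgi_Trias1_62475, belongs to the flavohaemoglobins and was the 3rd most abundant gene of the whole table in control replicates 2 and 3. It was at 804 FPKM in control replicate 1 and at 14732 and 12581 FPKM in control replicates 2 and 3. The treated libraries held 3036, 5940 and 8707 FPKM at 100 μg/mL, 2092, 2579 and 2572 FPKM at 500 μg/mL and 1527, 1351 and 1033 FPKM at 1000 μg/mL. Control replicate 1 was thus the lowest of the 12 libraries for this gene, 17.0-fold below the mean of the other 2 controls, while those 2 were the highest. With limma over 12 libraries no contrast with the control was called: the log2 fold change at 1000 μg/mL was -2.04 ± 0.84 (SE, limma adjusted p = 0.074). Over 11 libraries it was called lower at 100 μg/mL (-1.34 ± 0.35, limma adjusted p = 0.021), at 500 μg/mL (-2.50, adjusted p = 0.00016) and at 1000 μg/mL (-3.40, adjusted p = 6.2e-06). The comparison of 1000 with 100 μg/mL uses no control level, and its log2 fold change was -2.07 in both fits, with a limma adjusted p of 0.091 over 12 libraries and of 0.00022 over 11, since control replicate 1 entered the shared spread. A fit of those 2 groups alone, with no control library in it, gave an adjusted p of 0.0011. The study's NOISeq rule (probability above 0.8 and a log2 ratio of means above 1 in either direction), over the same 12 libraries, did call the gene lower at 500 μg/mL (-1.96), at 1000 μg/mL (-2.85) and in 1000 against 100 μg/mL (-2.18).

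The other nitric oxide dioxygenase, jgi_Trias1_131161, was at 70.5 FPKM in control replicate 1 and at 1251 and 810 FPKM in control replicates 2 and 3. At the 3 doses its libraries held 306, 575 and 636 FPKM, then 320, 357 and 529 FPKM, then 508, 420 and 326 FPKM. The dose groups overlapped throughout, all 9 treated libraries lay below control replicates 2 and 3, and all 9 lay above control replicate 1. With 12 libraries the log2 fold change at 1000 μg/mL was -0.02 ± 0.78 (limma adjusted p = 0.99), with a 95% interval from -1.71 to 1.68. Without control replicate 1 it was called lower at every dose, at -1.06, -1.36 and -1.29 (limma adjusted p = 0.044, 0.0060 and 0.0052). From 100 to 1000 μg/mL it moved by -0.23 with an interval from -0.86 to 0.41 over 11 libraries, where the change of jgi_Trias1_62475 had passed the test. The difference between these 2 genes was not tested.

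A nitric oxide synthase-interacting protein, jgi_Trias1_32057, entered the set by its name. Its namesake in mammals binds nitric oxide synthase, and its role in fungi is not given by the annotation. It was at 16.7 FPKM in control replicate 1 and between 5.56 and 12.4 FPKM in the other 11 libraries. It was called in no contrast, with a log2 fold change of 0.15 ± 0.32 at 1000 μg/mL over 12 libraries and 0.52 ± 0.23 over 11 (limma adjusted p = 0.75 and 0.071).

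Nitrate reductase was represented by 2 genes. The expressed one, jgi_Trias1_41338, has a nitrate reductase of Fusarium oxysporum as its closest match, and its FPKM were 19.7, 36.6 and 36.0 in the controls. They were 12.6, 10.4 and 8.89 at 100 μg/mL, 3.77, 4.98 and 5.31 at 500 μg/mL and 1.42, 1.08 and 1.46 at 1000 μg/mL. The 4 groups did not overlap, and here control replicate 1 was also above every treated library. The level at 1000 μg/mL was 4.29% of the mean of all controls and 3.63% of that of control replicates 2 and 3, the latter a 27.5-fold lower level.

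This nitrate reductase, jgi_Trias1_41338, was called lower in each contrast with the control: the log2 fold change was -1.41 at 100 μg/mL (limma adjusted p = 0.0089), -2.44 at 500 μg/mL (adjusted p = 6.1e-05) and -3.73 ± 0.28 at 1000 μg/mL (adjusted p = 6.5e-07). Over 11 libraries these values were -1.70, -2.72 and -4.01, all called. It also fell from 100 to 1000 μg/mL by 2.32 on the log2 scale (limma adjusted p = 8.0e-05). Between neighbouring doses, the step from 100 to 500 μg/mL (-1.03) had an adjusted p of 0.090 over 12 libraries and of 0.0061 over 11. The step from 500 to 1000 μg/mL (-1.29, adjusted p = 0.013) was not called without D5 replicate 2 (adjusted p = 0.065) or without D10 replicate 2 (adjusted p = 0.067). The call at 100 μg/mL was lost with those 2 groups alone (adjusted p = 0.11), and the NOISeq rule called the gene lower at 1000 μg/mL but not at 100 or 500 μg/mL (-1.54 and -2.72) nor in 1000 against 100 μg/mL (-3.01). Because 1 was added to each FPKM before taking logs, the fold changes of this low gene are smaller than the ratios of its FPKM.

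The second nitrate reductase entry, jgi_Trias1_63011, was listed at 0 in 11 libraries and at 0.17 FPKM in control replicate 2. The gene whose closest match is the nitrite reductase NiiA of Trichoderma reesei, jgi_Trias1_63012, was at or under 0.12 FPKM in every library. Both failed the filter, a mean of at least 1 FPKM over the 12 libraries, so 11 of the 13 genes were tested, or 10 without the nitric oxide reductase. A nitrate/nitrite transporter of the NNP family, jgi_Trias1_63013, whose description does not hold the search words as written, was at 0 in 10 libraries, at 0.10 FPKM in D1 replicate 2 and at 0.29 FPKM in D5 replicate 1. In these libraries, then, the assimilatory nitrite reductase and the transporter were at or near 0 with and without dichlorvos, and the depth behind such values is not known from FPKM.

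The 2 expressed genes with a nitrite reductase entry carry it by weak matches only, and their closest matches are hypothetical proteins, so the enzyme name is uncertain for both. The gene jgi_Trias1_55897 (E value 8e-19) was one of the most abundant of the set, at 1135, 3136 and 3454 FPKM in the controls, 3078, 2985 and 2329 FPKM at 100 μg/mL, 1780, 1628 and 1958 FPKM at 500 μg/mL and 1070, 1108 and 1003 FPKM at 1000 μg/mL. Control replicate 1 lay just above the 3 libraries at 1000 μg/mL, and the dose groups did not overlap with each other. It was called lower at 1000 μg/mL, at -1.12 ± 0.35 over 12 libraries (limma adjusted p = 0.022) and at -1.63 ± 0.17 over 11 (adjusted p = 7.9e-06), and in 1000 against 100 μg/mL, at -1.39 in both. The call over 12 libraries against the control was lost without control replicate 2 or 3 or without any single library at 1000 μg/mL, where values ran from -1.15 to -0.83 and limma adjusted p from 0.054 to 0.089. It was also lost with those 2 groups alone (adjusted p = 0.096) and by the NOISeq rule (-1.28).

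The other, jgi_Trias1_133137 (E value 1e-10), moved in the opposite direction. Its FPKM were 57.1, 32.6 and 34.4 in the controls, 115, 106 and 84.0 at 100 μg/mL, 105, 108 and 114 at 500 μg/mL and 95.5, 118 and 105 at 1000 μg/mL. All treated libraries were above all controls, control replicate 1 was the highest control, and the dose groups overlapped. The gene was called higher at each dose, with log2 fold changes of 1.31, 1.42 and 1.38 ± 0.22 (limma adjusted p = 0.0029, 0.00070 and 0.00037), and likewise over 11 libraries (1.56, 1.67 and 1.63). The call at 100 μg/mL was lost with those 2 groups alone (adjusted p = 0.081), and the NOISeq rule called none of the 3 (1.29, 1.40 and 1.36). Between 100 and 1000 μg/mL it changed by 0.07, with a 95% interval from -0.41 to 0.55.

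Nitronate monooxygenases oxidise nitronates, the anionic form of nitroalkanes, and release nitrite. The set held 4 genes of this name. Among the tested genes of the set, jgi_Trias1_59362 had the largest rise at 1000 μg/mL. It was at 45.5, 41.3 and 31.3 FPKM in the controls, 100, 102 and 95.9 FPKM at 100 μg/mL, 135, 159 and 150 FPKM at 500 μg/mL and 351, 387 and 336 FPKM at 1000 μg/mL. The 4 groups did not overlap and control replicate 1 lay close to the other controls. At 1000 μg/mL the mean was 358 ± 26.6 FPKM (SD, n = 3), 9.09-fold that of the controls (39.4 ± 7.33 FPKM).

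The nitronate monooxygenase jgi_Trias1_59362 was called higher at 100 μg/mL (1.33, limma adjusted p = 0.00040, not by the NOISeq rule), at 500 μg/mL (1.90, adjusted p = 7.9e-06) and at 1000 μg/mL (3.17 ± 0.17, adjusted p = 3.4e-08), and over 11 libraries the last value was 3.28. It also rose from 100 to 1000 μg/mL by 1.84 (limma adjusted p = 9.8e-06) and from 500 to 1000 μg/mL by 1.27 (adjusted p = 0.00073). The step from 100 to 500 μg/mL was 0.57 and did not pass (adjusted p = 0.13).

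**Figure D2:**
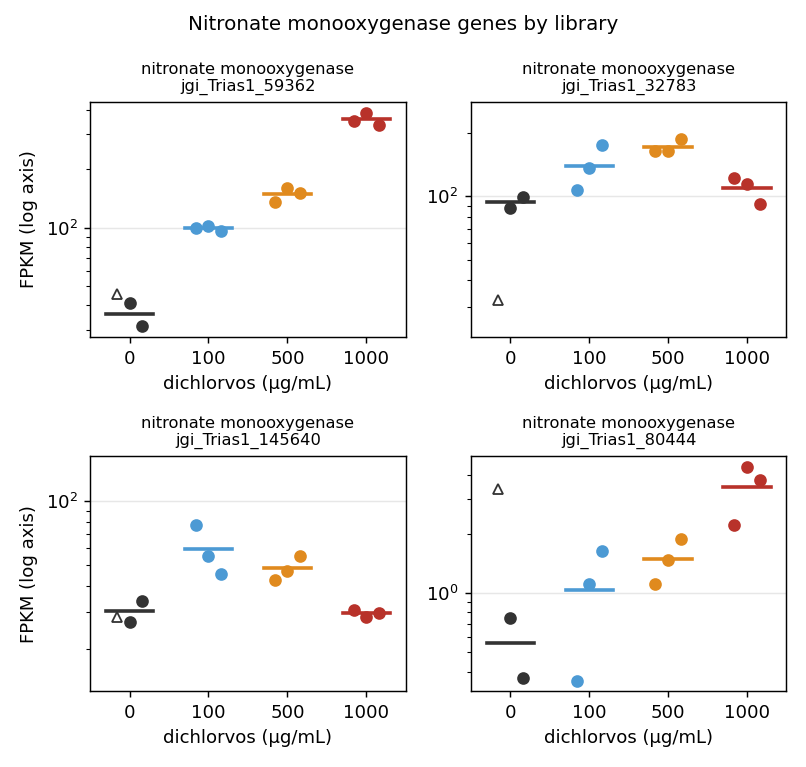
FPKM on a log axis (y) against dichlorvos in μg/mL (x) for the 4 nitronate monooxygenase genes. Points are single libraries, the open triangle is control replicate 1, and each line is the group mean, taken in the control over replicates 2 and 3. The gene jgi_Trias1_59362 climbed to 358 FPKM at 1000 μg/mL, jgi_Trias1_145640 came back to 29.6 FPKM, close to its control level, and jgi_Trias1_80444 stayed at or under 4.40 FPKM.

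The nitronate monooxygenase jgi_Trias1_32783 was at 32.3 FPKM in control replicate 1 and at 88.3 and 99.5 FPKM in control replicates 2 and 3. It was at 107, 136 and 175 FPKM at 100 μg/mL, 163, 164 and 187 FPKM at 500 μg/mL and 122, 115 and 92.1 FPKM at 1000 μg/mL. The highest group was thus that at 500 μg/mL, although it overlapped that at 100 μg/mL, and the group at 1000 μg/mL overlapped control replicate 3. It was called higher at 500 μg/mL alone (1.36 ± 0.35, limma adjusted p = 0.015), and this call was lost without control replicate 1 (0.86, under the fold limit) and without D5 replicate 3 (1.30, adjusted p = 0.053). It was also lost under median centring (adjusted p = 0.096), with those 2 groups alone (adjusted p = 0.083) and by the NOISeq rule (1.23). At 1000 μg/mL its value was 0.72 ± 0.35 (adjusted p = 0.12), and without control replicate 3 that contrast was called (1.01, adjusted p = 0.046).

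The third, jgi_Trias1_145640, was at 28.3, 26.9 and 33.6 FPKM in the controls, at 77.0, 55.3 and 45.5 FPKM at 100 μg/mL, at 42.6, 47.0 and 55.2 FPKM at 500 μg/mL and at 30.7, 28.5 and 29.6 FPKM at 1000 μg/mL. The libraries at 100 and 500 μg/mL were all above the controls and those at 1000 μg/mL lay within the range of the controls. The log2 fold change was 0.95 ± 0.21 at 100 μg/mL (limma adjusted p = 0.018), just under the fold limit of 1, and 0.00 ± 0.21 at 1000 μg/mL, with a 95% interval from -0.46 to 0.47. From 100 to 1000 μg/mL it was -0.95 (adjusted p = 0.0063), also just under the limit. Without D1 replicate 3 both values passed (1.12 and -1.12), and without control replicate 3 the value at 100 μg/mL passed (1.04).

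The last, jgi_Trias1_80444, was a low gene, at 3.40 FPKM in control replicate 1 and at 0.75 and 0.37 FPKM in control replicates 2 and 3. It was at 0.36, 1.12 and 1.65 FPKM at 100 μg/mL, 1.11, 1.48 and 1.89 FPKM at 500 μg/mL and 2.22, 4.40 and 3.79 FPKM at 1000 μg/mL. The libraries at 1000 μg/mL were above control replicates 2 and 3, and control replicate 1 lay among them. It was not called over 12 libraries (0.99 ± 0.42, limma adjusted p = 0.081) and was called higher at 1000 μg/mL over 11 (1.50 ± 0.34, adjusted p = 0.0026). In 1000 against 100 μg/mL it was not called over 12 libraries (1.15, adjusted p = 0.062) and was called over 11 (adjusted p = 0.0089) and without control replicate 3 (adjusted p = 0.047).

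For 3 further genes a nitronate monooxygenase entry appeared only behind a first KEGG entry with no description, so they are outside the rule and are given as values. The gene jgi_Trias1_186446 was at 108, 106 and 67.0 FPKM in the controls, 249, 372 and 248 FPKM at 100 μg/mL, 635, 720 and 632 FPKM at 500 μg/mL and 1192, 1524 and 1633 FPKM at 1000 μg/mL. Its 4 groups did not overlap. The gene jgi_Trias1_54552 went from between 502 and 1163 FPKM in the controls to between 3817 and 4257 FPKM at 1000 μg/mL, and jgi_Trias1_57282 from between 8.99 and 24.3 FPKM to between 62.3 and 88.4 FPKM.

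Counted over the 10 tested genes without the nitric oxide reductase, at 100 μg/mL 2 passed as higher and 1 as lower over 12 libraries, beside 4.60% and 0.538% of all tested genes. At 500 μg/mL 3 were higher and 1 lower, beside 10.6% and 3.48%. At 1000 μg/mL 2 were higher (jgi_Trias1_59362 and jgi_Trias1_133137) and 2 lower (jgi_Trias1_41338 and jgi_Trias1_55897), beside 19.2% and 7.81%, so the share of higher genes was near that of all genes. In 1000 against 100 μg/mL 1 was higher and 2 lower, beside 13.0% and 5.48%. By the moderated F-test 6 of the 10 differed among the 4 groups, beside 34.0%.

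Over 11 libraries, the calls among these 10 were 2 higher and 3 lower at 100 μg/mL (7.67% and 1.05% of all tested genes), 2 higher and 3 lower at 500 μg/mL (16.8% and 4.31%) and 3 higher and 4 lower at 1000 μg/mL (25.9% and 7.68%). The 2 nitric oxide dioxygenases made the difference in the lower calls at each dose. The F-test passed for 9 of the 10, beside 56.9%. The median log2 fold change of the 10 at 1000 μg/mL was 0.08 over 12 libraries and 0.10 over 11, beside 0.18 and 0.37 for all tested genes, and the calls went in both directions. With so few genes, and with lists that were known from earlier results, these counts describe the set and test nothing about it. For a single gene, 3 libraries against 3 cannot give an exact two-sided permutation p under 0.1.

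**Figure D3:**
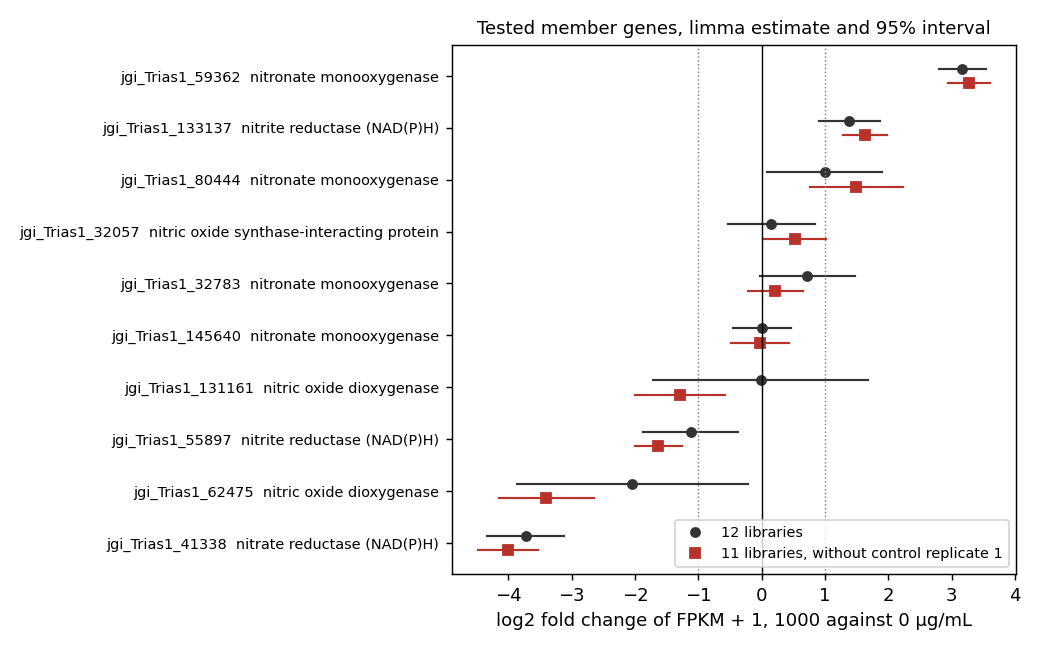
Log2 fold change of FPKM + 1 at 1000 against 0 μg/mL (x) for the 10 tested genes (y) by limma, with 95% intervals as horizontal lines. Circles are fits over 12 libraries, squares fits over the 11 without control replicate 1, and dotted lines mark the fold limit of 1 in either direction. The nitrate reductase jgi_Trias1_41338 (-3.73 and -4.01) and the nitronate monooxygenase jgi_Trias1_59362 (3.17 and 3.28) moved little between the fits, and the interval of the dioxygenase jgi_Trias1_131161 spanned -1.71 to 1.68 in the former and lay below 0 in the latter.

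Likeness to the nitric oxide reductase was measured as the Pearson correlation of log2(FPKM + 1) over 12 libraries, as a description. The points share their libraries and the dose order, and any gene that falls steadily with dose scores high. The 5 most alike genes outside the set were jgi_Trias1_55267 (sarcosine or L-pipecolate oxidase, r = 0.980), jgi_Trias1_254632 (protein-L-isoaspartate O-methyltransferase, which repairs damaged aspartyl residues, 0.980), jgi_Trias1_68178 (a xyloglucan endoglucanase, 0.978), jgi_Trias1_137224 (3-methyl-2-oxobutanoate hydroxymethyltransferase, of pantothenate synthesis, 0.977) and the unannotated jgi_Trias1_219864 (0.976). Over 11 libraries they stayed between 0.976 and 0.985. The first, jgi_Trias1_55267, was at 56.1, 254 and 339 FPKM in the controls and at 23.0, 24.5 and 25.4 FPKM at 1000 μg/mL. Control replicate 1 was thus low for this gene too.

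Within the set, jgi_Trias1_55897 followed the nitric oxide reductase most closely (r = 0.921 over 12 libraries and 0.957 over 11), before the nitrate reductase jgi_Trias1_41338 (0.888 and 0.948) and the dioxygenase jgi_Trias1_62475 (0.859 and 0.926). Among all other tested genes they ranked 76th, 154th and 225th over 12 libraries and 52nd, 79th and 154th over 11. The other dioxygenase, jgi_Trias1_131161, stood at 0.392 and 0.576. The nitronate monooxygenase jgi_Trias1_59362 ran opposite, at -0.863 and -0.951.

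A gene with no KEGG entry, jgi_Trias1_64276, was chosen after its values were seen, because its closest match is a copper-containing nitrite reductase, the kind of enzyme that produces nitric oxide in denitrification. It was at 106 FPKM in control replicate 1, 491 and 381 FPKM in control replicates 2 and 3, 185, 196 and 252 FPKM at 100 μg/mL, 71.3, 83.9 and 71.0 FPKM at 500 μg/mL and 52.2, 51.5 and 45.9 FPKM at 1000 μg/mL. Its dose groups did not overlap and its course resembled that of the nitric oxide reductase (r = 0.932 in both sets of libraries). By this likeness it ranked only 52nd among all other tested genes over 12 libraries and 127th over 11, so the resemblance is not particular to it. A low gene chosen the same way, jgi_Trias1_137125, was between 1.55 and 4.22 FPKM in the controls and between 0 and 0.65 FPKM at 1000 μg/mL. Its closest match is a formate/nitrite transporter but its first KEGG entry is formate dehydrogenase, so its function is uncertain.

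The genes downstream of nitrite were taken from lists of KEGG names. Of the ammonium assimilation list, 22 of 34 genes were tested. At 1000 μg/mL calls were 2 higher and 2 lower (19.2% and 7.81% of all tested genes), with a median log2 fold change of -0.04. The search words also caught 22 genes of folylpolyglutamate synthase, a folate enzyme, and without these 9 of 12 were tested, 1 was higher and 1 lower. Over 11 libraries the whole list had 4 higher and 3 lower (25.9% and 7.68% of all tested genes), and 3 higher and 1 lower without the folate enzyme. The lower one in both fits was jgi_Trias1_66787, an ammonium transporter of the Amt family that imports ammonium, at 103, 172 and 126 FPKM in the controls, 31.5, 39.9 and 47.5 FPKM at 100 μg/mL, 17.0, 19.5 and 22.2 FPKM at 500 μg/mL and 12.4, 14.8 and 12.8 FPKM at 1000 μg/mL. Its groups did not overlap, and at 1000 μg/mL the log2 fold change reached -3.21 ± 0.23 (limma adjusted p = 4.4e-07) over 12 libraries and -3.38 over 11. A second ammonium transporter, jgi_Trias1_51984, was between 2.10 and 9.47 FPKM in all libraries and was not called at 1000 μg/mL, and 2 weaker matches, jgi_Trias1_58407 and jgi_Trias1_41198, were at or under 1.86 FPKM throughout.

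Glutamine synthetase, which joins ammonium to glutamate, had its highest level in jgi_Trias1_61173, at 3976, 8192 and 7769 FPKM in the controls and 6321, 5168 and 6854 FPKM at 1000 μg/mL, and it was not called in either fit there. A low glutamine synthetase entry, jgi_Trias1_149345, was called higher at 1000 μg/mL (1.02 ± 0.24, limma adjusted p = 0.0048), from 23.8, 14.5 and 13.8 FPKM to 33.5, 38.9 and 33.1 FPKM. It fell under the fold limit without control replicate 2 (0.91), control replicate 3 (0.88) or D10 replicate 2 (0.94) and after centring on the library median (0.76). Another, jgi_Trias1_50398, was at 46.9, 18.0 and 21.1 FPKM in the controls and at 40.1, 60.4 and 60.3 FPKM at 1000 μg/mL and was called higher over 11 libraries only. So was jgi_Trias1_27885, glutamate synthase, at 197, 17.6 and 20.4 FPKM in the controls and at 32.0, 47.3 and 55.2 FPKM at 1000 μg/mL. The NADP glutamate dehydrogenase jgi_Trias1_78766, the other enzyme that fixes ammonium, was at 23.0, 6.01 and 3.68 FPKM in the controls and 8.14, 17.2 and 6.37 FPKM at 1000 μg/mL and was not called at 1000 μg/mL. Weak matches to these 2 enzymes, jgi_Trias1_46494 and jgi_Trias1_299838, were listed at 0 in 11 libraries each. Of the folylpolyglutamate synthase entries, jgi_Trias1_140833 was higher at 1000 μg/mL (1.61, adjusted p = 0.0035) and jgi_Trias1_54467 lower (-1.14, adjusted p = 0.0044).

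Molybdenum cofactor and sirohaem, the cofactors of nitrate and nitrite reductase, were followed by a list of KEGG names. It also holds jgi_Trias1_128924 and jgi_Trias1_55957, molybdenum cofactor sulfurtransferases, whose link to these reductases the annotation does not give. All 8 genes were tested, and at 1000 μg/mL limma called 1 higher and 0 lower (19.2% and 7.81% of all tested genes), with a median of -0.25. Over 11 libraries 2 were higher (jgi_Trias1_53638, of molybdenum cofactor synthesis, was added) and 0 lower (25.9% and 7.68%), with a median of 0.17. With 8 genes and such shares, the count of 0 lower says nothing about the list. Over 12 libraries, limma had 1 of the 8 lower at an unadjusted p under 0.05, and the NOISeq rule had 0. The shares above do not apply to these other thresholds, for which none was computed. The higher one was jgi_Trias1_52923, a weaker match to uroporphyrin-III C-methyltransferase of sirohaem synthesis, at 26.3, 17.6 and 14.9 FPKM in the controls and 37.9, 48.6 and 35.4 FPKM at 1000 μg/mL. Its log2 fold change was 1.04 ± 0.23 (limma adjusted p = 0.0031), and it fell under the limit without control replicate 2 (0.99), control replicate 3 (0.87) or D10 replicate 2 (0.91) and after median centring (0.78).

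Other enzymes that handle nitrosative stress are S-nitrosoglutathione reductase, listed by KEGG as S-(hydroxymethyl)glutathione dehydrogenase, and thioredoxin reductase. Of these 5 genes, all tested, the calls at 1000 μg/mL were 1 higher and 0 lower (19.2% and 7.81% of all tested genes), with a median of 0.10 over 12 libraries. For lower genes in that set of libraries, limma at an unadjusted p under 0.05 and the NOISeq rule also gave 0. No share of all tested genes was computed for these thresholds. Over 11 libraries the calls were 0 higher and 1 lower (25.9% and 7.68% of all tested genes), with a median of 0.22. The lower gene there was jgi_Trias1_302748, a weak match to thioredoxin reductase, at 0.22, 2.71 and 2.87 FPKM in the controls and 0.72, 1.11 and 0.37 FPKM at 1000 μg/mL (-1.15 ± 0.28, limma adjusted p = 0.0040). The gene jgi_Trias1_198462, one of the 2 S-(hydroxymethyl)glutathione dehydrogenases, was at 22.2, 38.5 and 36.3 FPKM in the controls and at 60.4, 75.2 and 71.9 FPKM at 1000 μg/mL (1.11 ± 0.22, limma adjusted p = 0.0017). Without control replicate 1 its value was 0.86, under the fold limit. The counterpart jgi_Trias1_201328 was between 127 and 213 FPKM in all libraries and was not called at 1000 μg/mL.

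Of the genes for other nitrogen sources (purine, urea, nitrile and formamide breakdown), 14 of 16 were tested. At 1000 μg/mL 2 were higher and 1 lower (19.2% and 7.81% of all tested genes), and the median was 0.61. Over 11 libraries 3 were higher and 1 lower (25.9% and 7.68%), with a median of 0.74. The higher ones there were jgi_Trias1_25743 (a weak match to kynurenine formamidase), jgi_Trias1_165336 (a urease accessory protein) and jgi_Trias1_145632. Urate oxidase, jgi_Trias1_29632, which oxidises urate in the path from urate to urea, was at 107 FPKM in control replicate 1 and at 772 and 752 FPKM in the other controls. It was at 324, 363 and 458 FPKM at 100 μg/mL, 115, 126 and 201 FPKM at 500 μg/mL and 101, 137 and 112 FPKM at 1000 μg/mL. Control replicate 1 lay within the range at 1000 μg/mL. The log2 fold change there was -1.77 ± 0.58 over 12 libraries (limma adjusted p = 0.029) and -2.71 over 11 (adjusted p = 1.6e-06), and over 12 the call was lost without control replicate 2 or 3 or any single library at 1000 μg/mL (-1.89 to -1.29, adjusted p from 0.057 to 0.12).

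Later in the same path, ureidoglycolate lyase jgi_Trias1_145632 was higher, from 3.72, 3.97 and 3.03 FPKM in the controls to 12.7, 19.0 and 12.1 FPKM at 1000 μg/mL (1.75 ± 0.25, limma adjusted p = 0.00015). A weaker match to urease, jgi_Trias1_148377, was also higher (1.08, limma adjusted p = 0.0034), at 52.1, 94.5 and 102 FPKM in the controls and 149, 180 and 183 FPKM at 1000 μg/mL, and without control replicate 1 its value was 0.78, under the fold limit.

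**Figure D4:**
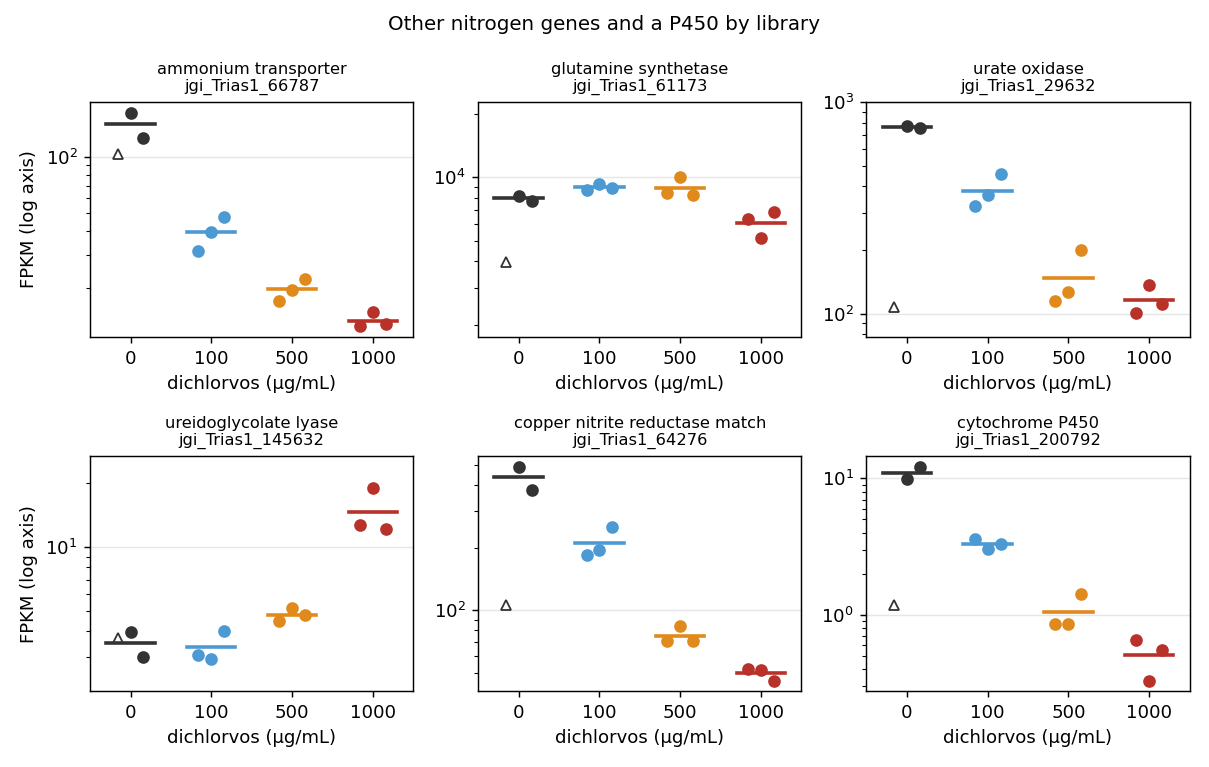
FPKM on a log axis (y) against dichlorvos in μg/mL (x) for 5 nitrogen genes outside the set and the cytochrome P450 that was called lower at 1000 μg/mL. Points are single libraries, the open triangle is control replicate 1, and each line is the group mean, taken in the control over replicates 2 and 3. The ammonium transporter, urate oxidase, the copper nitrite reductase match and the P450 descend over the doses, glutamine synthetase stays within a range of 3976 to 10064 FPKM, and ureidoglycolate lyase reaches 12.1 to 19.0 FPKM at 1000 μg/mL.

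Since the nitric oxide reductase is itself a cytochrome P450, the genes with P450 in their first KEGG name were set beside it. Of these 9 genes 6 were tested. At 1000 μg/mL 0 were higher and 1 lower over 12 libraries, with a median of -0.11, while 2 were higher and 1 lower over 11. Over 12 libraries, 2 were higher there by limma at an unadjusted p under 0.05 and 0 by the NOISeq rule. The higher ones over 11 libraries were jgi_Trias1_359213 and jgi_Trias1_88406. The former was at 313, 314 and 144 FPKM in the controls and 597, 445 and 373 FPKM at 1000 μg/mL. The latter was at 2.50, 0.75 and 0.90 FPKM in the controls and 2.40, 3.31 and 4.13 FPKM at 1000 μg/mL. At 500 μg/mL over 12 libraries both were called higher, with means of 882 and 6.22 FPKM. Calls at that dose were 2 higher and 1 lower (10.6% and 3.48% of all tested genes). The lower gene, the monooxygenase jgi_Trias1_200792, was at 1.19 FPKM in control replicate 1, 9.87 and 12.2 FPKM in the other controls and 0.65, 0.33 and 0.55 FPKM at 1000 μg/mL (-2.18 ± 0.52, limma adjusted p = 0.0055). The counts of calls in these lists, like those of the set, lie beside 19.2% higher and 7.81% lower among all tested genes at 1000 μg/mL over 12 libraries. Over 11 libraries these shares were 25.9% and 7.68%. The medians of the lists at that dose lie beside 0.18 over 12 libraries and 0.37 over 11 for all tested genes. Of the 10 list genes that limma called at 1000 μg/mL over 12 libraries, the NOISeq rule called 2, the ammonium transporter jgi_Trias1_66787 and urate oxidase jgi_Trias1_29632. Shares of all tested genes were not computed for the NOISeq rule or for an unadjusted p, so the counts by these stand without them.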

How the data were processed

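The authors deposited FPKM of 11647 genes in 12 libraries, already scaled to gene length and library size. The reads were compared with the Trias1 genome, and the submitters' processing notes name BWA, Bowtie and RSEM, with no role or version. FPKM hold no read counts, so depth is unknown and precision is limited by 3 libraries per group. Groups were taken from the labels, and 0 columns of library values were left unassigned. Gene names came from the deposited annotation, since 0 identifiers matched the RefSeq list at hand (assembly ASM2064786v1).

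A linear model on log2(FPKM + 1) was fitted with limma 3.58.1 (R 4.3.3), with an intensity trend and 4 groups in 1 fit, to 8916 genes whose FPKM averaged at least 1. The script was tested on simulated data. A call needed an adjusted p (Benjamini-Hochberg, over all tested genes) under 0.05 and a log2 fold change above 1 in either direction. The authors' NOISeq rule (probability above 0.8) was rewritten in Python 3.11.15 as an alternative. Other alternatives were a pseudocount of 0.1, no filter or a mean of at least 5, TPM, median centring, a replicate block, 2 groups alone, no trend and each library left out.

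Named genes were every gene of the set, in each list up to 2 rises and 2 falls among genes called at 1000 μg/mL, ammonium transporters, glutamine synthetase, NADP glutamate dehydrogenase and the 5 genes most alike to the nitric oxide reductase. Members and lists were chosen with earlier results of these data known. Outside this rule, genes of the lists called over 11 libraries only, and those given by closest match, were named after their values were seen.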

Additional observations from a re-analysis of the deposited data

How the results depend on the processing

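The 32 fold changes of tested genes of the set that the text gives were recomputed under 22 alternatives. Of the 698 values, 619 kept direction and side of the threshold, 29 passed it only there, 24 no longer passed and 26 changed sign, none of the last from a value called over 12 libraries.

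The shares of all tested genes given above are for limma over 12 and over 11 libraries only. Counts under the other settings have no such share beside them, so they are not a result about the set. The counts of called genes of the set moved as follows. Leaving out 1 library in turn gave 1 to 3 genes lower at 100 μg/mL, 1 to 3 lower at 500 μg/mL, 1 to 4 lower at 1000 μg/mL and 1 to 2 higher in 1000 against 100 μg/mL. Without control replicate 1 and with median centring, 3, 4 and 4 genes were lower at the 3 doses and 4 in 1000 against 100 μg/mL. With 2 groups alone, 1 gene was higher and 0 lower at 100 μg/mL, 1 lower at 1000 μg/mL and 2 higher in 1000 against 100 μg/mL. The NOISeq rule called 0 higher and 0 lower at 100 μg/mL, where limma with 12 libraries called 2 and 1, and 1 higher at each of 500 and 1000 μg/mL. The cause was not tested.

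Sign changes were seen for jgi_Trias1_62475 at 100 μg/mL, 0.02 over 12 libraries, under median centring (-0.043), without control replicate 1 and with median centring (-1.63), by the NOISeq rule (-0.67) and among the fits that leave out 1 library (-1.34 to 0.76, below 0 without control replicate 1 or D1 replicate 2 or 3). For jgi_Trias1_131161 at 100 μg/mL, 0.21 over 12 libraries, the values were -1.35 without control replicate 1 and with median centring, -0.49 by the NOISeq rule and -1.06 to 1.004 with 1 library left out. This gene ran from -1.36 to 0.71 at 500 μg/mL and from -1.29 to 0.78 at 1000 μg/mL with 1 library left out, above 0 in both without control replicate 2 or 3. At 1000 μg/mL jgi_Trias1_32783 was -0.27 without control replicate 1 and with median centring. There jgi_Trias1_145640, 0.00 over 12 libraries, was -0.039 as TPM, -0.25 with median centring, -0.51 with that and without control replicate 1, -0.0018 by the NOISeq rule and -0.059 to 0.096 with 1 library left out. At the same dose jgi_Trias1_32057 was -0.11 with median centring and -0.067 to 0.52 with 1 library left out.

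The replicate numbers were not taken to pair libraries of different groups, since no label ties them and not every pair deviated together: the correlations of same-numbered libraries ran from -0.319 to 0.495, 7 of 18 pairs were over 0.1, and 7 of 12 libraries correlated best with their own number. The replicate number as a block took the lower genes at 1000 μg/mL from 2 to 3, by jgi_Trias1_62475 (-2.04, limma adjusted p = 0.042), and left the other counts at 2 higher and 1 lower at 100 μg/mL, 3 and 1 at 500 μg/mL, 2 higher at 1000 μg/mL, 1 higher and 2 lower in 1000 against 100 μg/mL and 6 by the F-test. Without depth, the values under 1 FPKM have no counting error that could be given.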
